A study of Mus musculus with 6 samples.

Results

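Lysosomal hydrolases, lysosomal membrane proteins and the subunits of the vacuolar proton pump were followed on 6 single-colour Agilent microarrays of sorted mouse myeloid cells. The members were 31 listed hydrolases, activators and membrane proteins, and every gene whose name in the scanner files starts with Atp6v or Atp6ap, which added 25 pump genes. These 56 genes were taken from 28312 genes with a named probe, and 50 of them were among the 16388 genes bright enough to be tested. All 31 hydrolase and membrane genes and 19 pump genes were tested, and these 50 were well above background on all 6 arrays. Sorted cells of infarcted left ventricles gave 3 samples, named heart 1, heart 2 and heart 4, and those of spleens gave 3 more, named spleen 1, spleen 2 and spleen 4, each from a single organ. All mice were wild type, of the C57BL/6N strain, and had had an acute myocardial infarction 3 days earlier, so neither group is from an uninjured animal, and ages were not given in the sources used here. In both tissues the sort kept CD45high CD11bhigh cells that were low for the lineage stains B220, Thy-1.2, NK-1.1, DX5 and Ly6G. The question was how far the digestive and acidifying machinery of the lysosome differed between myeloid cells of the infarct and those of the spleen.

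Lysosomes are acidic compartments in which macrophages break down what they engulf, including dead cells, matrix and red cells. The hydrolases are soluble enzymes that each remove a particular bond from proteins, glycans, glycosaminoglycans, lipids or phosphate esters, and inherited loss of most of them causes a lysosomal storage disease. The vacuolar ATPase acidifies the lumen: its cytosolic V1 sector hydrolyses ATP and turns a rotor that drives protons through the membrane-embedded V0 sector. Many genes of the system share a promoter element that is bound by TFEB, TFE3 and MITF, the MiT/TFE transcription factors.

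Levels below are log2 processed signal relative to the 75th percentile of the same array, so 0 is that percentile and each unit is a doubling. Differences are heart minus spleen on this log2 scale, each with its standard error (SE) from a limma fit across the tested genes. A gene was called where its p, after Benjamini-Hochberg adjustment, was under 0.05. Macrophage and monocyte markers were well above background on all arrays for 7 of 7 genes, among them Csf1r and Adgre1, so the labelled cell type had its defining markers in both tissues. Their summed level was 463 to 534 times the 75th percentile in hearts, against 153 in spleen 1, 293 in spleen 2 and 348 in spleen 4, and 3 of 7 were called higher. Neutrophil markers summed to 22.1 to 29.0 in hearts and 501 to 1145 in spleens (7 of 9 called lower), although Ly6G had been gated low. B cell markers summed to 0.75 to 1.24 in hearts, against 97.7 in spleen 1, 3.98 in spleen 2 and 3.34 in spleen 4. T and NK cell markers summed to 2.61 to 2.81 in hearts, against 36.2 in spleen 1, 12.3 in spleen 2 and 2.62 in spleen 4, and 3 of 5 were tested. Spleen 1 therefore stood apart from the other spleens in its B cell and its macrophage and monocyte sums. In the neutrophil and granulocyte precursor sums it lay between them. The counts of called members, and those of the further gene lists, are also given without spleen 1. In such bulk samples, fewer cells of a type and less RNA per cell cannot be told apart.

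Most members had a higher mean level in hearts than in spleens, but few passed the test. Of the 31 hydrolase and membrane genes, 28 had a positive and 3 a negative difference. Among them, 4 were called higher in heart (Acp2, Npc1, Sgsh and Gaa), against 9.06% of all genes tested, and 1 was called lower (Arsb), against 6.43%. Of the 19 tested pump genes, 18 had a positive difference, 3 were called higher (Atp6v0a1, Atp6v1c1 and Atp6v1h) and 0 lower. With an unadjusted p under 0.05 in limma, 10 hydrolase and membrane genes were higher and 3 lower, and 11 pump genes were higher and 0 lower, against 18.4% higher and 13.6% lower of all genes tested. The median difference was 0.62 over the hydrolase and membrane genes and 0.66 over the pump genes, against 0.11 over all genes tested, of which 58.4% were positive. All 3 heart values lay above all 3 spleen values for 12 of 31 hydrolase and membrane genes and 13 of 19 pump genes, against 24.6% of all genes tested. They lay below all spleen values for 3 hydrolase and membrane genes and 0 pump genes, against 16.5% of all genes tested. The shares called higher were 12.9% and 15.8%.

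**Figure D1:**
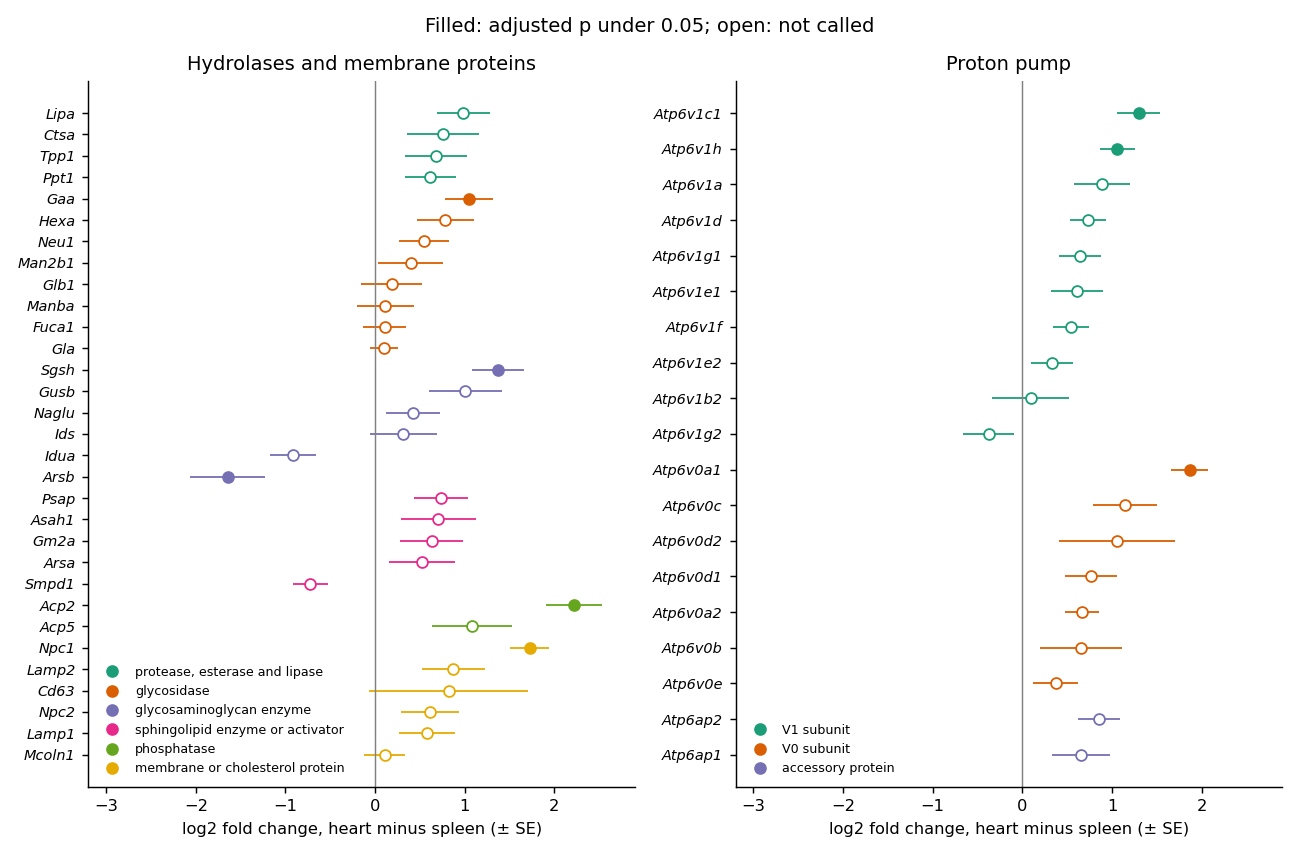
Log2 fold change (heart minus spleen, ± SE of the fit) of each tested member, by role, with filled points for members at adjusted p under 0.05 and open points for the others. Of 31 hydrolase and membrane genes 28 lie right of 0, as do 18 of 19 pump genes, and 8 points are filled.

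The heart samples lay close together, with a median SD of 0.13 for hydrolase and membrane genes and 0.12 for pump genes, while the spleen samples had median SDs of 0.59 and 0.43. The spleen SD was the larger for 49 of 50 members, against 84.0% of all genes. With separate variances for the tissues and no moderation, 0 of the 50 members were called. Few genes of any kind were called in that setting, 0.275% of all genes higher and 0.0549% lower.

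The enzymes that cut proteins and esters had differences of 0.62 to 0.98, and 0 of 4 were called (limma, 1 with an unadjusted p under 0.05). Ctsa, which encodes the serine carboxypeptidase cathepsin A that also protects neuraminidase and beta-galactosidase, had levels of 5.65, 5.72 and 5.92 in heart 1, heart 2 and heart 4, against 4.20, 4.97 and 5.84 in spleen 1, spleen 2 and spleen 4. Spleen 4 reached the heart values, so the groups overlapped (difference 0.76 ± 0.41, adjusted p = 0.255). The probe of Ctsa shares 59 letters with the opposite strand of a probe for Pltp. Lipa, the acid lipase that frees cholesterol and fatty acids from lipoproteins, was higher on every heart array (0.98 ± 0.30, adjusted p = 0.0729). Tpp1, a tripeptidyl peptidase, was at 0.68 (adjusted p = 0.23) and Ppt1, which removes palmitate from proteins, at 0.62 (adjusted p = 0.195).

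Of the 8 glycosidases, 1 was called. Gaa, the acid alpha-glucosidase that degrades lysosomal glycogen, had levels of 2.29, 2.31 and 2.60 in heart 1, heart 2 and heart 4, against 1.05, 1.13 and 1.88 in spleen 1, spleen 2 and spleen 4. All heart values were above all spleen values, with spleen 4 the closest (difference 1.05 ± 0.27, a 2.07-fold higher level in heart, adjusted p = 0.0457). A second Gaa probe, nearer the start of the gene, gave 1.22 (adjusted p = 0.0416). The call lay at the threshold: it held in 8 of 21 alternatives and ended, for instance, without spleen 1 (adjusted p = 0.081). Gla, the alpha-galactosidase A of Fabry disease, hardly varied, with 6.73, 6.75 and 6.87 in hearts 1, 2 and 4, against 6.64, 6.77 and 6.65 in spleens 1, 2 and 4 (difference 0.10 ± 0.16, adjusted p = 0.71). It was the single member whose spleen SD (0.074) was no larger than its heart SD (0.078). Hexa and Neu1, a beta-hexosaminidase subunit and a sialidase, were higher on every heart array than on any spleen array but were not called (0.78, adjusted p = 0.145, and 0.55, adjusted p = 0.231). Man2b1 was at 0.40, and Glb1, Manba and Fuca1 lay between 0.11 and 0.18, with spleen 4 above all 3 hearts in each of these 4 genes.

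The 6 enzymes of glycosaminoglycan breakdown held the widest range, with 1 called higher and 1 lower. Arsb, the N-acetylgalactosamine 4-sulfatase that acts on dermatan and chondroitin sulfate, had levels of −3.87, −4.13 and −3.80 in heart 1, heart 2 and heart 4, against −2.34, −1.42 and −3.10 in spleen 1, spleen 2 and spleen 4. It was 3.13-fold lower in heart (difference −1.64 ± 0.42, adjusted p = 0.045), and spleen 4 was again nearest to the hearts. Its call held in 10 of 21 alternatives, and a second probe was above background on too few arrays to be tested. Gusb, beta-glucuronidase, had 4.11, 4.25 and 4.30 in hearts 1, 2 and 4, against 2.38, 3.24 and 4.02 in spleens 1, 2 and 4. It did not pass (1.01 ± 0.40, adjusted p = 0.146), and it was called without spleen 4 (1.41, adjusted p = 0.0217). Naglu and Ids, which act on heparan sulfate, were at 0.42 and 0.31 with overlapping groups.

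The remaining glycosaminoglycan enzymes, Sgsh (heparan N-sulfatase) and Idua (alpha-L-iduronidase), were each measured by a pair of probes that disagreed, and the letters of the probes differ in kind. The first 30 bases, or for the first probe bases 14 to 43, are shown to make this visible, 5′ to 3′, with the alternating repeat in capitals. They are the array's own designed probes, placed by the files in the mouse build mm9.
Sgsh, probe used, chr11:119204865-119204924, minus strand: cacaTGTGTGTGTGTGTGTGTGTGTGcgtg
Sgsh, adjacent probe, chr11:119204805-119204864, minus strand: cttcctactcctccttatggaagtgtgaaa
Idua, probe used, chr5:109112893-109112952, plus strand: CACACACACACACACACACAgagtctaaat
Idua, other probe, chr5:109113517-109113576, plus strand: cccaaatgactctagcttgtaataaactga
The probe of Sgsh with the TG repeat, its brightest, had levels of 7.38, 7.47 and 7.37 in heart 1, heart 2 and heart 4, against 5.47, 6.08 and 6.55 in spleen 1, spleen 2 and spleen 4. Its difference of 1.37 ± 0.29 was called (adjusted p = 0.0275). The adjacent probe, without a repeat, had 0.51, 0.64 and 0.82 in hearts 1, 2 and 4, against 0.36, 0.41 and 1.24 in spleens 1, 2 and 4. Its groups overlapped, and its difference was −0.01 ± 0.28 (adjusted p = 0.983 over all tested probes). For Idua, the probe with the CA repeat had 2.03, 2.04 and 2.02 in hearts 1, 2 and 4, against 2.92, 3.41 and 2.51 in spleens 1, 2 and 4 (difference −0.91 ± 0.25, adjusted p = 0.0585). The other Idua probe had 1.45, 1.27 and 1.52 in hearts 1, 2 and 4, against 0.80, 0.33 and 1.45 in spleens 1, 2 and 4, a difference of the opposite sign (0.56 ± 0.30, adjusted p = 0.263).

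Both repeat probes had differences like those of the array's other repeat probes. The array held 73 tested probes with at least 16 bases of TG repeat, for 73 genes, and 71 of them were called higher in heart and 0 lower, with a median difference of 1.54 and quartiles of 1.19 and 1.73. Sgsh, at 1.37, lay between those quartiles. The 35 tested probes with a CA repeat had a median difference of −0.85 with quartiles of −0.93 and −0.79, and 5 were called lower and 0 higher. Idua, at −0.91, lay within these as well. Over the 21729 tested probes without such a repeat the median was 0.11. No other member's probe held a repeat of 16 bases. With the repeat probes left out, an alternative chosen after seeing the data, 3 rather than 4 of the 31 genes were called higher. As before, 1 was called lower, and the shares of all genes were 8.63% higher and 6.35% lower. Of the 31 genes, 3 then had a negative difference, Arsb, Smpd1 and, at −0.01, Sgsh.

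**Figure D2:**
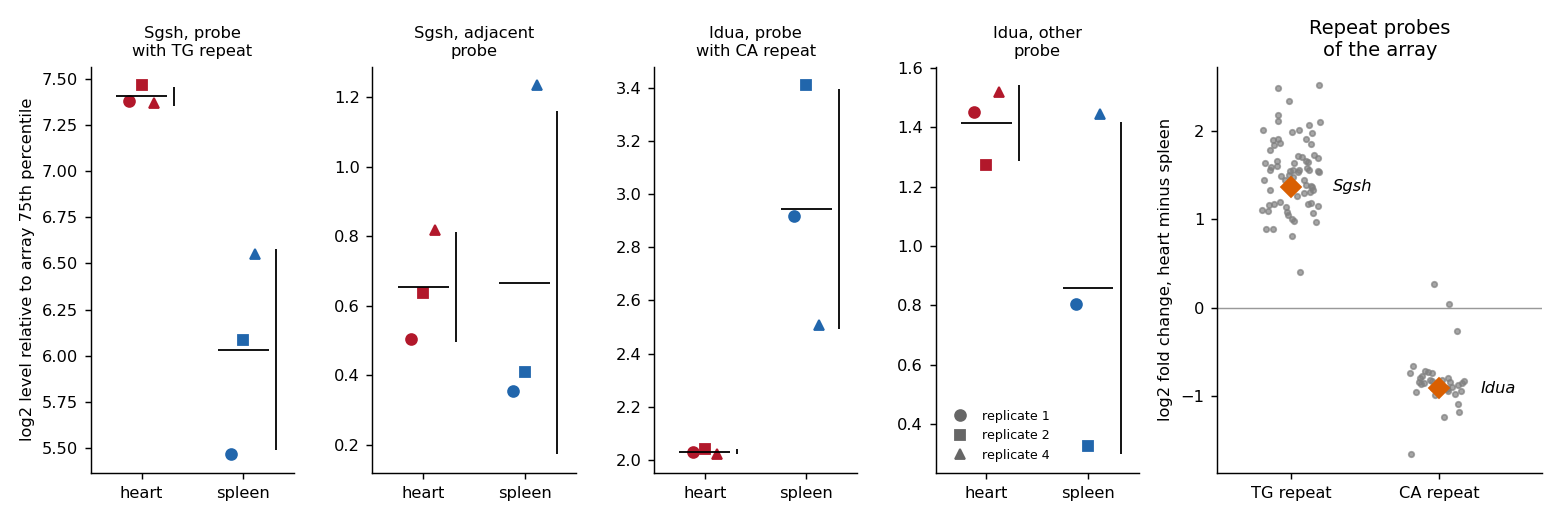
Left 4 panels: log2 level (relative to the array's 75th percentile) of both probes of Sgsh and of Idua in 3 heart and 3 spleen samples, with means as lines and ± SD as bars. Right panel: log2 fold change of the 73 tested TG-repeat probes and the 35 tested CA-repeat probes (grey), with Sgsh and Idua as diamonds inside their clouds.

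Of the 5 enzymes and activators of sphingolipid breakdown, 0 were called (limma, 2 with an unadjusted p under 0.05, in opposite directions). Psap, the precursor of the saposins that present lipids to their hydrolases, had 5.38, 5.54 and 5.87 in heart 1, heart 2 and heart 4, against 4.27, 5.20 and 5.10 in spleen 1, spleen 2 and spleen 4. The groups did not overlap (0.74 ± 0.30, adjusted p = 0.148). Smpd1, acid sphingomyelinase, was the reverse, with 0.57, 0.84 and 0.81 in hearts 1, 2 and 4, against 1.19, 1.55 and 1.65 in spleens 1, 2 and 4. All heart values were below all spleen values (−0.72 ± 0.20, adjusted p = 0.0549), and 5 of 21 alternatives called it lower, among them quantile normalization (adjusted p = 0.0252). Asah1 (acid ceramidase), Gm2a (the GM2 activator) and Arsa (arylsulfatase A) had positive differences of 0.70, 0.63 and 0.52, and in each of them spleen 4 exceeded all 3 hearts.

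The acid phosphatases gave the largest change among the members. Acp2, the lysosomal acid phosphatase (mm9 chromosome 2, 91051929 to 91051988), had levels of 2.24, 2.16 and 1.96 in heart 1, heart 2 and heart 4, against −0.59, −0.26 and 0.56 in spleen 1, spleen 2 and spleen 4. It was 4.65-fold higher in heart (2.22 ± 0.31, adjusted p = 0.00964). Its second probe, in the same gene, gave 2.05 (adjusted p = 0.00607), and the call held in 17 of 21 alternatives. Acp5, the tartrate-resistant phosphatase of osteoclasts and some macrophages, had 4.27, 4.32 and 4.45 in hearts 1, 2 and 4, against 4.30, 2.52 and 2.97 in spleens 1, 2 and 4. The value of spleen 1 alone reached the hearts (1.08 ± 0.45, adjusted p = 0.153), and without spleen 1 the gene was called higher (adjusted p = 0.00868). Both Acp5 probes, which overlap by 45 bases, showed the same pattern. Red pulp macrophage markers, whose cells are known to hold Acp5, summed to 1.49 to 1.72 in hearts, against 18.5 in spleen 1, 5.83 in spleen 2 and 1.89 in spleen 4. Each of these markers was highest in spleen 1. In spleen 2, Slc40a1 and Vcam1 lay above all hearts, but Spic and Cd5l lay below all hearts. Acp5 did not follow the sum in the other spleens, at 2.52 in spleen 2 and 2.97 in spleen 4. The part of red pulp macrophages in the result was not tested.

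Among the 6 membrane and cholesterol-handling proteins, Npc1 was called. Npc1, the membrane protein that exports cholesterol from the lysosome, had 1.15, 1.06 and 1.08 in heart 1, heart 2 and heart 4, against −0.97, −0.29 and −0.62 in spleen 1, spleen 2 and spleen 4. It was 3.30-fold higher in heart (1.72 ± 0.22, adjusted p = 0.00658), and the call held in 19 of 21 alternatives. Npc2, the soluble protein that hands cholesterol to Npc1, was at 0.61 (adjusted p = 0.255), with spleen 4 just below the lowest heart value. Lamp1, the most abundant glycoprotein of the lysosomal membrane, had 6.13, 6.26 and 6.64 in hearts 1, 2 and 4, against 5.16, 5.93 and 6.20 in spleens 1, 2 and 4 (0.58 ± 0.31, adjusted p = 0.258). Lamp2, needed for fusion of autophagosomes and lysosomes, was higher on every heart array in both of its probes (0.87, adjusted p = 0.148, and 0.90, adjusted p = 0.182). Cd63, a tetraspanin of late endosomes, was the most variable member among the spleens, with 3.41, 4.95 and 1.15 in spleens 1, 2 and 4, while the hearts lay between 3.74 and 4.14. Mcoln1, the lysosomal calcium channel TRPML1, was at 0.11 with spleen 4 above all hearts.

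**Figure D3:**
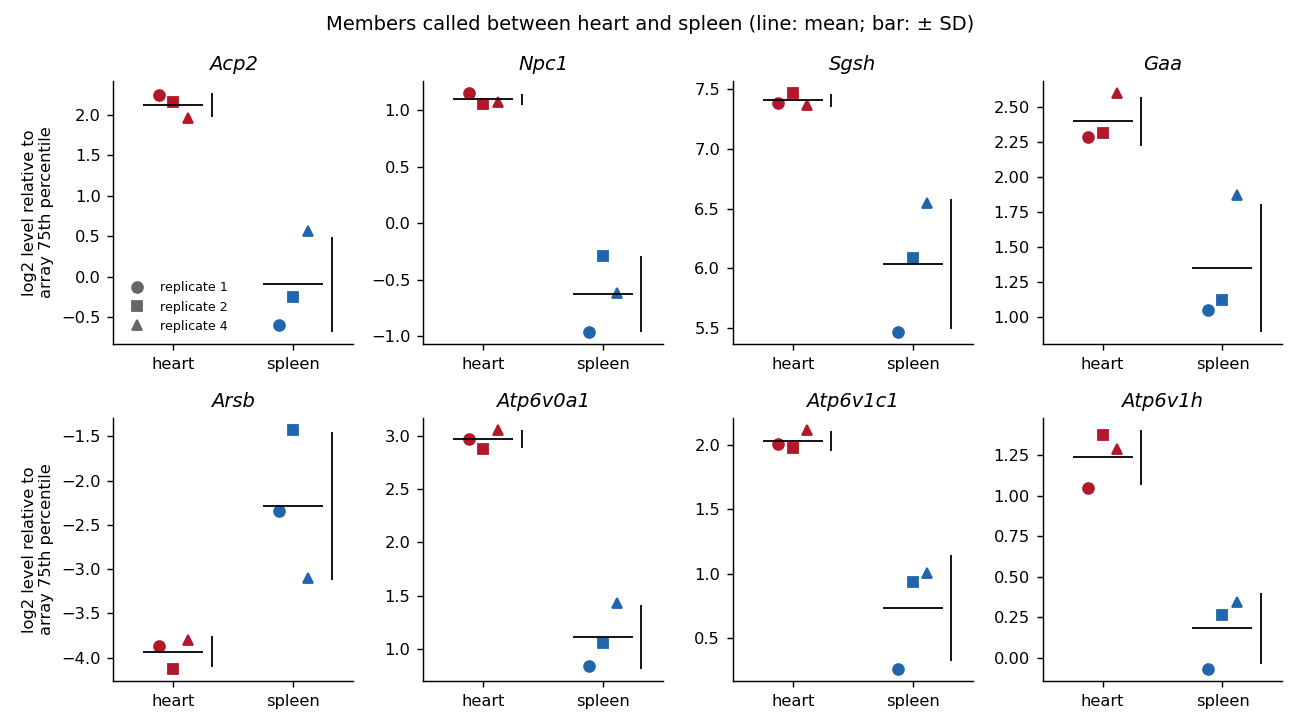
Log2 level, relative to the array's 75th percentile, of the 8 called members in 3 heart and 3 spleen samples, with the mean as a line and ± SD as a bar. Heart and spleen values do not overlap in any panel, and for Sgsh the probe drawn is the one with the TG repeat.

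In the V1 sector of the proton pump, 2 of 10 tested subunits were called higher. Atp6v1c1, the C1 isoform of the stator subunit whose binding is reversible (mm9 chromosome 15, 38621773 to 38621832), had 2.00, 1.97 and 2.12 in heart 1, heart 2 and heart 4, against 0.26, 0.94 and 1.01 in spleen 1, spleen 2 and spleen 4. It was 2.46-fold higher in heart (1.30 ± 0.24, adjusted p = 0.0202). Atp6v1h, the H subunit that links V1 to V0 (mm9 chromosome 1, 5123207 to 5123266), had 1.05, 1.38 and 1.29 in hearts 1, 2 and 4, against −0.07, 0.27 and 0.35 in spleens 1, 2 and 4. It was 2.08-fold higher (1.06 ± 0.20, adjusted p = 0.0197). Each of these 2 calls held in 15 of 21 alternatives. Separate groups were not particular to these subunits. All heart values lay above all spleen values for 7 of the 10 tested V1 subunits, against 24.6% of all genes tested. Of the catalytic and rotor subunits, Atp6v1f had 5.80, 5.62 and 5.84 in hearts 1, 2 and 4, against 4.93, 5.25 and 5.46 in spleens 1, 2 and 4 (0.54 ± 0.20, adjusted p = 0.121). Atp6v1a, the ATP-hydrolysing A subunit, was at 0.89 (adjusted p = 0.106) in 1 probe and 0.86 in the other. Its partner Atp6v1b2, the B2 subunit, was at 0.09 (adjusted p = 0.908), with the values of spleen 2 and spleen 4 above all hearts. Atp6v1d and Atp6v1g1 were higher on every heart array (0.73, adjusted p = 0.0551, and 0.64, adjusted p = 0.122), though the probe of Atp6v1g1 shares 50 of its 60 letters with a probe for Gm12344 and their signals cannot be told apart. Atp6v1e1 was at 0.60, also without overlap.

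In the V0 sector, 1 of 7 tested subunits was called. Atp6v0a1, the a1 isoform of the large subunit that forms the proton path (mm9 chromosome 11, 100924969 to 100925028), had 2.98, 2.88 and 3.06 in heart 1, heart 2 and heart 4, against 0.84, 1.05 and 1.43 in spleen 1, spleen 2 and spleen 4. It was 3.65-fold higher in heart (1.87 ± 0.21, adjusted p = 0.0044), the lowest adjusted p of all members, and the call held in 19 of 21 alternatives. Its paralog Atp6v0a2, an isoform of the Golgi and endosomes, had −0.34, −0.25 and −0.32 in hearts 1, 2 and 4, against −0.81, −0.86 and −1.24 in spleens 1, 2 and 4 (0.66 ± 0.19, adjusted p = 0.0594; called with quantile normalization, adjusted p = 0.0346). Tcirg1, which encodes the a3 isoform of lysosomes and osteoclasts but lacks the prefix, had 3.46, 3.45 and 3.71 in hearts 1, 2 and 4, against 2.00, 3.09 and 3.45 in spleens 1, 2 and 4, and did not pass (0.69 ± 0.38, adjusted p = 0.269). Whether the change of Atp6v0a1 differed from that of its paralogs was not tested. Atp6v0e had 5.93, 5.89 and 6.11 in hearts 1, 2 and 4, against 5.11, 5.82 and 5.88 in spleens 1, 2 and 4 (0.37 ± 0.25, adjusted p = 0.361). The proteolipid gene Atp6v0c and the d1 subunit gene Atp6v0d1 were higher on every heart array (1.15, adjusted p = 0.0808, and 0.77, adjusted p = 0.127). Atp6v0d2, an isoform known from osteoclasts, had 2 usable values a tissue, because the spots of heart 1 and spleen 1 were marked as outliers. The values were −4.03 and −3.17 in heart 2 and heart 4, against −5.46 and −3.85 in spleen 2 and spleen 4. A second probe of Atp6v0d2 was well above background on 0 heart and 0 spleen arrays.

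The accessory protein Atp6ap2, known as the prorenin receptor, was higher on every heart array (0.85 ± 0.23, adjusted p = 0.0553), and Atp6ap1 was at 0.66 (adjusted p = 0.22) with 3.69, 3.78 and 3.77 in heart 1, heart 2 and heart 4, against 2.44, 3.13 and 3.70 in spleen 1, spleen 2 and spleen 4. The minor isoforms were mostly dark. Atp6v0a4, Atp6v0e2, Atp6v1b1 and Atp6v1c2, isoforms known from kidney or other epithelia and from brain, were not well above background on any array. Atp6ap1l was well above background on 1 spleen array and 0 heart arrays, and Atp6v1g3 on 1 heart and 2 spleen arrays. Atp6v1e2 and Atp6v1g2, known as testis and brain isoforms, were measurable at −3.59 ± 0.20 and −4.50 ± 0.15 in heart, against −3.92 ± 0.34 and −4.12 ± 0.51 in spleen (SD, n = 3 each), with adjusted p of 0.387 and 0.412. Atp6v1g2 was the single pump gene with a negative difference.

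How high a member stood above spleen depended on which spleen it was set against. The mean of the 3 hearts exceeded spleen 1 by a median of 1.17 over the 31 hydrolase and membrane genes and spleen 2 by 0.49, but spleen 4 by 0.09, with 16 of 31 genes positive. For the pump the same medians were 1.24, 0.58 and 0.40, and against spleen 4 still 16 of 19 genes were positive. Over all genes tested they were 0.22, 0.07 and 0.02. Spleen 1 held the lowest of the 3 spleen values for 25 of 31 hydrolase and membrane genes and 16 of 18 pump genes, against 48.6% of all genes. Spleen 4 held the highest for 22 of 31 and 15 of 18, against 44.7%. The summed level of macrophage and monocyte markers ran in the same order (153, 293 and 348 in spleen 1, spleen 2 and spleen 4). Within that list Mertk did not, at −1.52, −4.65 and −3.73. The sums of B cell markers (97.7, 3.98 and 3.34) and T and NK cell markers (36.2, 12.3 and 2.62) ran in the reverse order. So did those of erythroid (123, 16.3 and 6.89) and red pulp markers (18.5, 5.83 and 1.89). The median level of hydrolase and membrane genes was highest in spleen 2 (2.38, 2.89 and 2.52). The part of any cell type in the result was not tested. Whether hydrolases and pump differed in how they depended on the spleen array was likewise not tested.

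**Figure D4:**
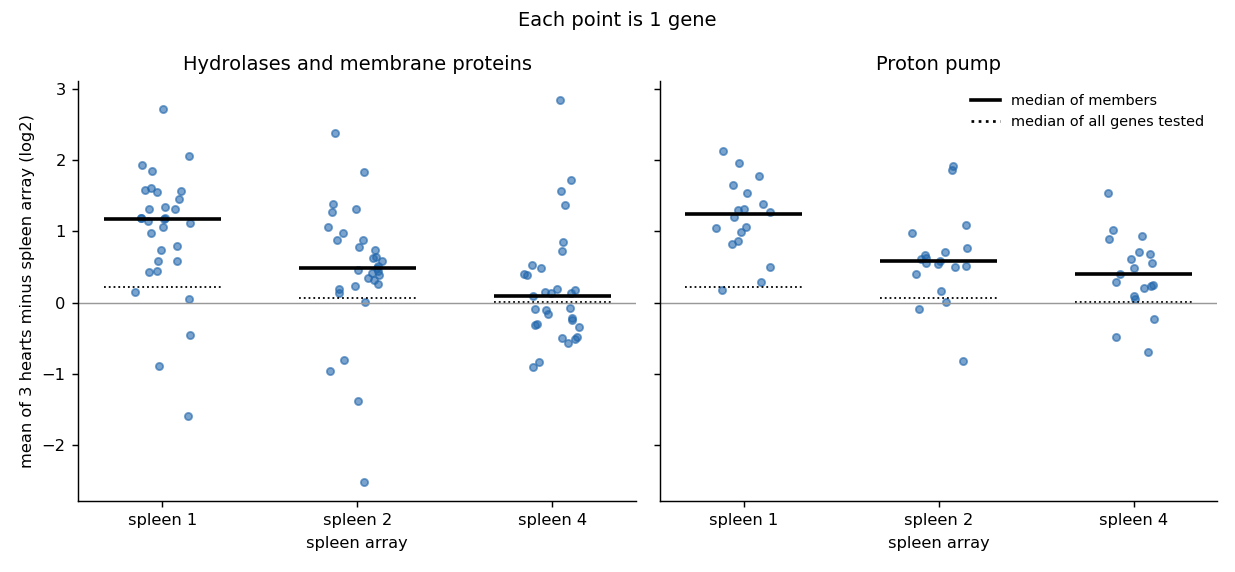
Mean of the 3 hearts minus each spleen array (log2) for every tested hydrolase and membrane gene (left) and pump gene (right), 1 point per gene, with the members' median as a solid line and the median of all genes tested as a dotted line. The hydrolase median is 1.17 against spleen 1 and 0.09 against spleen 4, while the pump median stays at 0.40 against spleen 4.

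The count of calls changed with the samples in the fit. Without spleen 1, 4 hydrolase and membrane genes were called higher and 1 lower, and 5 pump genes higher, while the medians were 0.28 and 0.47. The shares of all genes were then 9.76% higher and 6.89% lower. Without spleen 4, the counts were 11 higher and 2 lower, and 8 pump genes, with medians of 0.86 and 0.90. The shares of all genes rose as well, to 14.7% higher and 9.83% lower. Without spleen 2, the counts were 2 higher, 0 lower and 3 pump genes, against 6.96% and 4.66% of all genes. Leaving out heart 1, heart 2 or heart 4 left 1, 1 and 2 hydrolase and membrane genes and 1 pump gene each time. The shares of all genes called higher fell to 1.96%, 2.1% and 2.17%. Samples of both tissues carry 1 of 2 dates in their titles, with number 4 on the later one. Between heart 4 and spleen 4, the pair of the later date, the median difference was 0.09 over hydrolase and membrane genes (17 of 31 positive) and 0.47 over pump genes (16 of 19). Within the earlier date the medians were 0.80 and 0.88, with 5 hydrolase and membrane genes called higher, 1 lower and 1 pump gene higher. All genes had shares of 5.97% higher and 4.44% lower within that date. Slide 1 held spleen 1 and spleen 2, slide 3 held heart 2 and heart 4, and slide 2 alone held both tissues (heart 1 and spleen 4). In that pair the medians were −0.07 (15 of 31 positive) and 0.49 (14 of 18), and with slide as a fixed block 0 members were called (limma). Few genes of any kind were called with that block, 0.488% of all genes higher and 0.0793% lower. In the slide 2 pair the differences were 1.77 for Npc1, 1.69 for Acp2, 1.55 for Atp6v0a1 and 0.99 for Atp6v1c1. They were 0.83 for Sgsh, 0.70 for Atp6v1h, 0.41 for Gaa and −0.77 for Arsb. The signs were fixed in advance, because the heart and spleen values of the called members do not overlap. They are therefore no separate evidence. With slide as a random block, 4 hydrolase and membrane genes were called higher and 1 lower, and 3 pump genes higher. All genes then had shares of 8.97% higher and 6.34% lower.

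**Figure D5:**
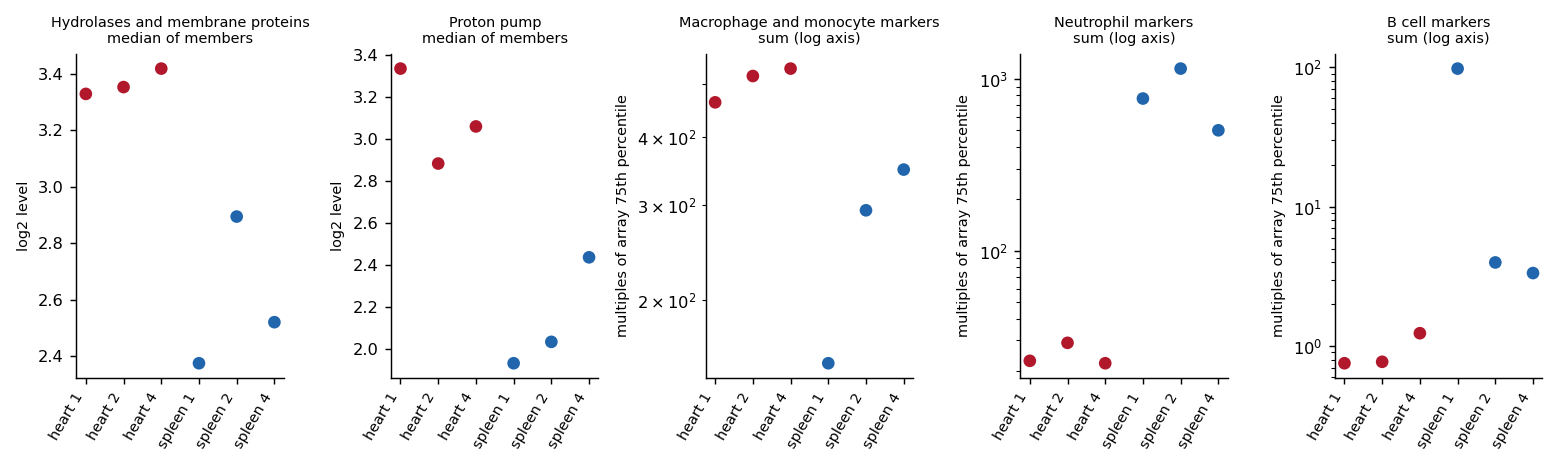
Median log2 level of the tested hydrolase and membrane genes and of the tested pump genes on each array (left 2 panels, relative to the array's 75th percentile), and summed linear level of macrophage and monocyte, neutrophil and B cell markers in multiples of the 75th percentile (right 3 panels, log axes). Spleen 1 has the lowest member medians, the lowest macrophage and monocyte sum (153) and the highest B cell sum (97.7).

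Other genes of the lysosome, listed by function with earlier results of these data known, had positive median differences in each of 5 lists, against a median of 0.11 over all genes tested, of which 9.06% were called higher and 6.43% lower. Without spleen 1, an alternative chosen after seeing the data, the medians of the lists were 0.14 to 0.51. The median over all genes was then 0.04, with 9.76% called higher and 6.89% lower. Of 18 further hydrolases and activating enzymes, 1 was called higher and 0 lower, with or without spleen 1, with a median of 0.44. That gene was Hyal1, a hyaluronidase, which was not well above background in the spleens and whose level in heart was at least 3.01-fold higher (adjusted p = 0.0114). Of 12 genes that sort enzymes to the lysosome, 2 were called higher and 0 lower (median 0.49), and 2 higher and 1 lower without spleen 1. These were M6pr, the cation-dependent mannose 6-phosphate receptor (0.99 ± 0.21, adjusted p = 0.0282), and Vps29, a retromer subunit (adjusted p = 0.0246), while Gga3 was at −0.09 (adjusted p = 0.772).

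Of 23 other membrane proteins and transporters, 2 were called higher and 0 lower (median 0.31), and 4 higher and 0 lower without spleen 1. The probe of Slc17a5, an uncalled gene of this list, holds a CA repeat of 22 bases and gave a difference of −0.95. Slc11a1, the NRAMP1 metal transporter of phagosomes, had 5.12, 5.08 and 5.33 in heart 1, heart 2 and heart 4, against 2.23, 2.82 and 3.94 in spleen 1, spleen 2 and spleen 4 (2.18 ± 0.43, adjusted p = 0.0222). Slc29a3, a lysosomal nucleoside transporter, was at 1.46 ± 0.30 (adjusted p = 0.0263), and Laptm4a at 0.50 (adjusted p = 0.261). Of the 9 tested genes for pump assembly and regulation, 0 were called higher and 1 lower (median 0.43), as without spleen 1. It was Rogdi, a component of the complex that reassembles V1 with V0, which fell by a difference of −1.10 ± 0.27 (adjusted p = 0.0403).

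Of the 16 tested MiT/TFE factors and lysosomal nutrient-sensing genes, 4 were called higher and 0 lower, with a median of 0.59, and 3 higher and 0 lower without spleen 1. Whether the lists differed from each other or from all genes was not tested. Fnip2, a partner of folliculin, had 2.74, 2.67 and 2.61 in heart 1, heart 2 and heart 4, against −0.79, 0.15 and 0.85 in spleen 1, spleen 2 and spleen 4 (2.60 ± 0.40, adjusted p = 0.0124). Mitf, one of the factors themselves, had 2.26, 2.21 and 2.46 in hearts 1, 2 and 4, against −0.56, 0.23 and 1.36 in spleens 1, 2 and 4 (1.96 ± 0.47, adjusted p = 0.0379). Lamtor3, part of the Ragulator scaffold, was at 1.11 ± 0.25 (adjusted p = 0.0312), and the fourth gene, Flcn, encodes folliculin. The related factor genes Tfe3, Tfec and Tfeb were not called, with differences of 0.80, 0.64 and −0.34, and Lamtor4 was at 0.12 (adjusted p = 0.858).

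Promoter windows of 300 bases, most of them ahead of the gene start, were found for 47 of the 56 members in a RefSeq table of the build GRCm38.p6 and were searched for CACGTG, the E-box core of the MiT/TFE element, which reads the same on both strands, and for TCACGTG on either strand, which contains it. A window with CACGTG was found for 13 of 47 members (27.7%), 9 of 29 hydrolase and membrane genes and 4 of 18 pump genes, against 8.09% of all 27025 genes in the table and 11.2% of the tested genes that have a window. TCACGTG was found for the same number of members, 13 (27.7%), against 4.29% of all genes and 6.55% of the tested genes that have a window. Of the 7 members called higher, 4 had a window, and 2 of these held the motif, Sgsh and Gaa. Neither call was firm: that of Sgsh came from its TG-repeat probe, while its adjacent probe gave −0.01. That of Gaa held in 8 of 21 alternatives. Sgsh and Gaa are shown with the members of each class that held the most copies, Lamp1 with 4 and Atp6v0b with 2. Lamp1 and Atp6v0b were picked after the search. Each stretch runs 5′ to 3′ on the gene's strand and ends at or before the base ahead of the start, with CACGTG in capitals.
Sgsh, chr11:119355511-119355566, minus strand: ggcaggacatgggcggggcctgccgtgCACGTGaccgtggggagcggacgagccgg
Gaa, chr11:119267796-119267855, plus strand: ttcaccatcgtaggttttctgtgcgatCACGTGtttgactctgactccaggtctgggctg
Lamp1, chr8:13159073-13159160, plus strand: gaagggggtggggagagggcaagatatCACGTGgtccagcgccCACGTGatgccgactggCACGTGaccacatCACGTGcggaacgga
Atp6v0b, chr4:117887330-117887392, minus strand: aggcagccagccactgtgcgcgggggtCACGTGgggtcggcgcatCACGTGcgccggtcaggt
The copies began 29 bases before the start in Sgsh, 140 in Gaa, 61, 45, 28 and 15 in Lamp1, and 36 and 18 in Atp6v0b.

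Members with and without the motif had similar median differences, which were not tested against each other. The median difference was 0.58 over the 13 tested members with CACGTG (2 called higher, 0 lower) and 0.63 over the 29 tested members without it (2 higher, 1 lower). The 2 called members with the motif were Gaa and, through its repeat probe only, Sgsh. Of all tested genes with a window, those with the motif had a median of 0.16 (134 of 1190 called higher) and those without it 0.09 (861 of 9404). The motif was present for Lamp1, Mcoln1, Gla, Glb1, Ctsa, Arsa and Naglu, none of which was called, and absent from the windows of Acp2 and Atp6v0a1. A match describes letters in a window only.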

How the data were processed

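RNA of 3 heart and 3 spleen samples was measured on Agilent single-colour arrays; per the labels' protocols, cRNA was made in a single amplification round and dye-labelled. The authors' scanner files give each spot's processed intensity, background-corrected and not scaled between arrays; per the file headers the software was Feature Extraction, version 10.7.3.1. Control spots and outlier spots were left out, spots of a probe were averaged, and log2 values were taken minus each array's 75th percentile. The deposited value table holds log2 values whose differences between arrays matched quantile-normalized log2 signals (slopes 0.992 to 0.998, 19313 probes, 15 pairs of arrays). Its column medians were 0, its direction and scale are settled by that match, the probe baseline is unknown, and it served as an alternative. Arrays had 43020 non-control spots for 39429 probes, 53.2% to 63.8% of them well above background, and 0 saturated spots. The number of arrays limits the precision.

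A gene was represented by its probe with the highest mean log2 signal, and tested where that probe passed the scanner's background test in every sample of 1 tissue or both and each tissue had 2 usable values; 11924 genes were left out. Of the probes, 26412 were named through their accession in a RefSeq table (GRCm38.p6, names only), and 35777 had a name. The difference of heart from spleen was fitted on all 6 arrays without covariates by lmFit and eBayes of limma (version 3.58.1, under R 4.3.3), two-sided, and p-values were adjusted over all 16388 genes. A fold for a gene dim in a tissue is a bound against the lowest signal well above background. Second probes were tested over all 21837 tested probes. Promoter and probe letters were searched in Python 3.11.15 with pandas 2.3.3, and figures were drawn with matplotlib 3.10.9. The fit was tested on simulated data.

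The members, lists and alternatives were chosen with earlier results of these data known. All members are accounted for, with values per array for each called member and the brightest uncalled one of each role; from each list, up to 3 called genes and the brightest uncalled one are named, except 1 gene that is not reported here. Others with array values were chosen after their values were seen. The labels do not state whether equal numbers mark the same animal, and the 6 samples include none numbered 3. Markers called higher were 4 of 4 tested for fibroblasts, 3 of 5 for cardiomyocytes, 2 of 6 for osteoclasts, 0 of 4 for granulocyte precursors, 0 of 2 erythroid, 0 of 3 dendritic, 0 of 4 B cell, 0 of 3 T and NK cell and 0 of 4 red pulp markers. Called lower were 2 osteoclast and 3 granulocyte precursor markers.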

Additional observations from a re-analysis of the deposited data

How the results depend on the processing

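The 8 called members kept their direction in all 21 alternatives chosen with the design, and 53 of these 168 results lost the call. The kept direction was largely given in advance. The alternatives reuse the same arrays, on which the heart and spleen values of these members do not overlap. The number of arrays limits the precision. Counts below are all genes higher and lower, then hydrolase and membrane genes higher and lower, then pump genes higher. Where only some counts are given, the others stayed within 1.5 times.

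With slide as a fixed block the counts were 80, 13, 0, 0 and 0, and the hydrolase median −0.071. With separate variances and no moderation they were 45, 9, 0, 0 and 0. With no filter on dim probes they were 967, 509, 2 and 0. With the replicate block they were 907, 608, 2 and 0; same-numbered samples did not deviate together (r −0.05, 0.04 and 0.01), so the numbers were not taken as pairs, and 5 of 8 called members passed. Within the earlier date, 976 genes were higher and 1 pump gene. Hydrolase and membrane genes called lower were 2 with normexp, with a trend and robust prior and with array weights. Of all genes, 5.05%, 6.52% and 5.69% were then called lower. Such members were 3 with quantile normalization and with the deposited table, against 6.94% and 6.88% of all genes. With the date block they were 0, against 5.92% of all genes. The trend and robust prior called 5 pump genes higher, against 9.34% of all genes. The hydrolase median was 0.38 with quantile normalization and 0.38 with the deposited table, and the pump median 0.44 and 0.43, against 0.66. Scaling arrays to their median moved the median of all genes to 0.22, from 0.11.

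Leaving out 1 sample gave 321 to 2409 genes higher and 113 to 1609 lower, 1 to 11 hydrolase and membrane genes higher and 0 to 2 lower, 1 to 8 pump genes higher, and hydrolase medians of 0.28 to 0.86. Among called members the only reversal was Sgsh, at −0.0122 with its adjacent probe and with repeat probes left out, both chosen after seeing the data. Other causes were not tested.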
